A study of Mus musculus with 10 samples.

Results

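The 5 genes described here are the early growth response transcription factors Egr1, Egr2 and Egr3 and the NGFI-A binding corepressors Nab1 and Nab2. They were chosen by name, as every probe set whose only gene symbol is one of the 5, out of 18194 genes on the array, and the choice was made with the fall of Egr3 in these lungs already known. They are read by 9 of the array's 45101 probe sets, of which 7 were bright enough to keep. The differences of the 5 genes between the exposed and the control lungs are therefore a description and carry no test.

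Whole lungs of 10 female C57BL/6 mice, an inbred laboratory strain, were measured on Affymetrix Mouse430_2 oligonucleotide arrays with 1 animal per array. The arsenic group was 5 mice that drank water with 50 ppm of arsenic for 12 weeks from the age of 8 weeks, and the control group was 5 mice of the same age whose water held 0 ppm. The labels name the compound as arsenate in one place and as arsenite in another, so it is called arsenic, and the treatment field of control animal 4 gives no dose. The comparison asks how prolonged oral arsenic alters lung transcripts. A first number in the sample titles, of unstated meaning, is 20 in all arsenic animals and 4 in all controls, and whatever it marks cannot be told apart from the exposure.

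EGR1, EGR2 and EGR3 are zinc-finger proteins that bind a shared GC-rich DNA site. Their genes are immediate-early genes: growth factors, stretch, calcium and stress switch them on within minutes through MAP kinases and serum response factor, and the transcripts are short-lived. NAB1 and NAB2 have no DNA-binding domain of their own. They attach to a repressor domain of EGR1, EGR2 and EGR3, recruit the NuRD chromatin complex and dampen EGR-driven transcription, and Nab2 is itself induced by EGR factors in other tissues, which closes a feedback loop. In the lung EGR1 has been studied mostly in vessels, in oxygen shortage and in fibrosis, and EGR2 and EGR3 mostly in lymphocytes.

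All values are on the log2 scale of GCRMA, the authors' normalization, in which a difference of 1 is a doubling. Any pair of the 10 arrays correlated over probe sets at 0.990 to 0.997. Markers of alveolar type 2 cells, the surfactant-making cells that mark the tissue as lung, averaged 14.87 to 15.03 in arsenic animals and 14.96 to 15.06 in controls. A list of kidney transcripts stood higher in the exposed lungs, at 5.02 to 6.47 in arsenic animals against 3.96 to 5.54 in controls. Of its 11 kept genes, 0 passed limma's test and 5 had an unadjusted p under 0.05. Of all 11332 genes tested, 1736 had such a p. Arsenic animal 5 and control animal 2 stood apart. Their club-cell marker levels were the lowest, 14.37 and 14.44, but this came mostly from 1 of the 6 genes, Scgb3a1, at 8.80 and 8.98 in these animals against 14.16 or more in the other arsenic animals and 14.21 or more in the other controls, while the other 5 genes were at 15.11 or more in every animal. The same animals were the lowest of their groups for ciliated-cell (8.24 and 8.69), cardiac-muscle (5.93 and 6.35), adipocyte (3.86 and 3.94) and smooth-muscle markers (8.14 and 8.10). In RNA from whole lung, fewer cells of a type and less RNA per cell cannot be told apart. With 5 arrays a group, precision is set by the number of animals.

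**Figure D1:**
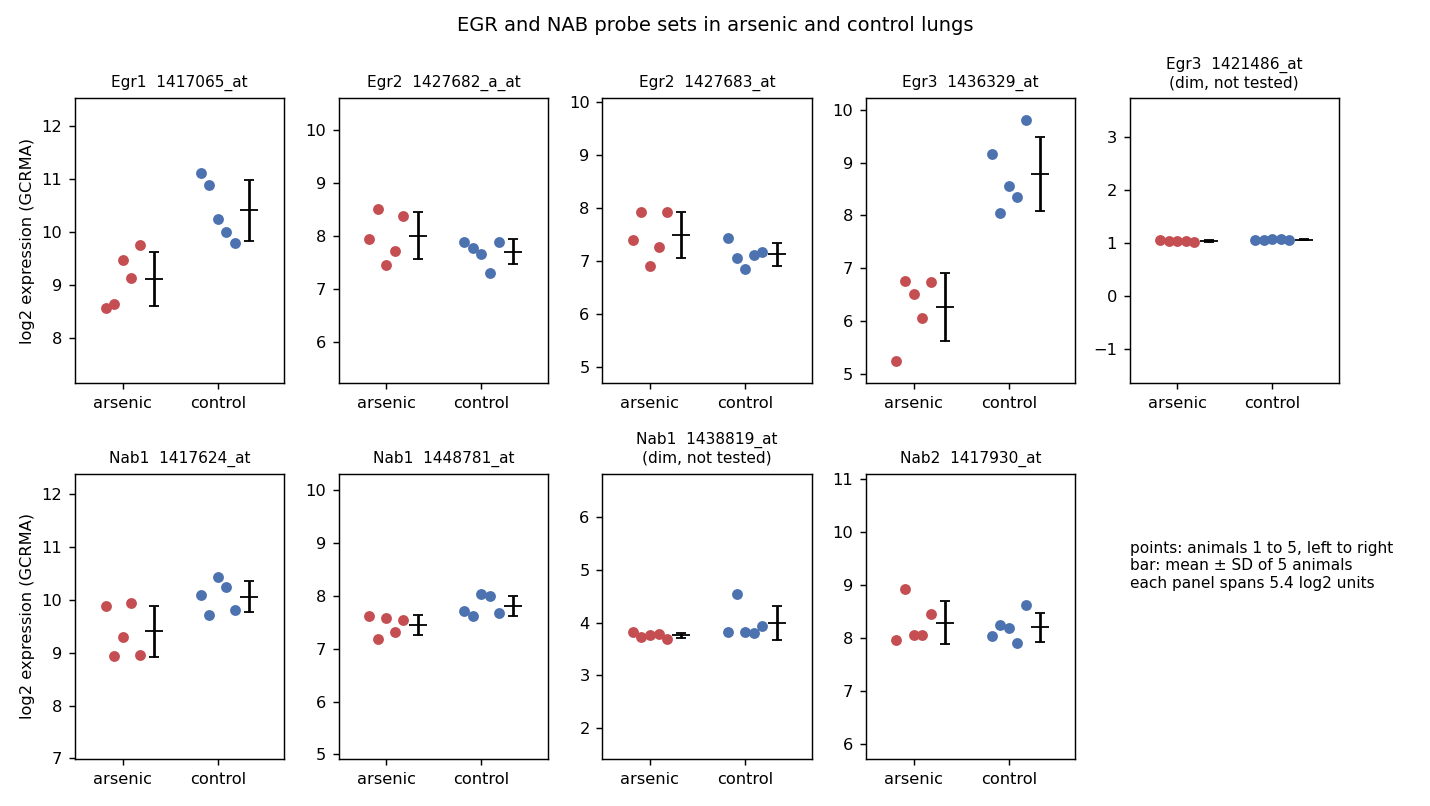
Expression of the 9 EGR and NAB probe sets on each array (vertical axis, log2 GCRMA value), with arsenic animals on the left and control animals on the right of each panel, 5 animals each. Points are animals and lines are group means with SD. The Egr1 and bright Egr3 panels show every arsenic animal below every control animal, the Egr2 and Nab2 panels overlap, and the 2 dim probe sets, of Egr3 and Nab1, were not tested.

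Among the transcription factors, Egr3 and Egr1 were lower in the arsenic lungs and Egr2 was not. Egr3, a factor that in lymphocytes restrains activation, had log2 values of 5.24, 6.76, 6.52, 6.05 and 6.75 in arsenic animals 1 to 5, against 9.16, 8.05, 8.56, 8.35 and 9.81 in control animals 1 to 5. Every arsenic animal lay below every control, with a gap between the highest arsenic value and the lowest control value. The means were 6.26 ± 0.641 in arsenic lungs and 8.79 ± 0.701 in control lungs (SD, n = 5 each), a difference of -2.53 (SE 0.372), or 5.76-fold lower. This value rests on 1 probe set, 1436329_at. The other Egr3 probe set, 1421486_at, was dim in every animal, at 1.02 to 1.05 in arsenic lungs and 1.05 to 1.07 in control lungs, so the pair disagree and the second gives no usable difference.

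Egr1, the family's prototype and a rapid responder to oxygen shortage and vessel injury, had 8.56, 8.64, 9.46, 9.13 and 9.76 in arsenic animals, against 11.11, 10.89, 10.24, 10 and 9.79 in control animals. The groups did not overlap, but the highest arsenic animal and the lowest control animal were almost level. The means were 9.11 ± 0.517 in arsenic lungs and 10.41 ± 0.572 in control lungs (SD, n = 5 each), a difference of -1.30 (SE 0.304), or 2.45-fold lower. With 1 animal left out at a time the difference stayed between -1.46 and -1.12.

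Egr2, which drives myelination in Schwann cells and limits activation in T cells, is read by 2 bright probe sets that agreed. The first, 1427682_a_at, gave 7.95, 8.52, 7.46, 7.72 and 8.38 in arsenic animals, against 7.89, 7.77, 7.67, 7.31 and 7.89 in control animals, so the groups overlapped, with arsenic animals 2 and 5 above all controls. Its difference was 0.30 (SE 0.203), from means of 8.01 ± 0.442 in arsenic lungs and 7.71 ± 0.241 in control lungs (SD, n = 5 each). The second, 1427683_at, again overlapped and differed by 0.37 (SE 0.198), from 7.49 ± 0.441 in arsenic lungs and 7.12 ± 0.214 in control lungs. Both had a wider spread among the arsenic animals than among the controls. Egr4, the remaining family member and not among the 5 genes, lay at the floor of the scale on all arrays, at 0.76 to 0.82 in arsenic lungs and 0.81 to 0.83 in control lungs.

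Of the corepressors, Nab1 was lower in the arsenic lungs and Nab2 was not. On the brighter Nab1 probe set, 1417624_at, the arsenic animals had 9.88, 8.94, 9.29, 9.94 and 8.96, against 10.09, 9.72, 10.44, 10.24 and 9.81 in control animals. Of the arsenic animals 3 were below the lowest control, and the other two lay within the control range. The means were 9.40 ± 0.484 in arsenic lungs and 10.06 ± 0.298 in control lungs (SD, n = 5 each), a difference of -0.66 (SE 0.227), or 1.58-fold lower. The second Nab1 probe set, 1448781_at, had 7.62, 7.19, 7.59, 7.31 and 7.55 in arsenic animals, against 7.72, 7.62, 8.04, 7.99 and 7.67 in control animals. Its groups did not overlap before rounding, with the closest pair of animals both at 7.62, and it differed by -0.36 (SE 0.120). Another, 1438819_at, was too dim to keep and differed by -0.23, or by -0.09 without control animal 2, which alone stood high.

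Nab2, the corepressor that EGR factors induce, had 7.97, 8.92, 8.05, 8.06 and 8.46 in arsenic animals, against 8.04, 8.24, 8.18, 7.90 and 8.63 in control animals. The groups lay across each other, with arsenic animal 2 highest of all. The means were 8.29 ± 0.396 in arsenic lungs and 8.20 ± 0.276 in control lungs (SD, n = 5 each), a difference of 0.09 (SE 0.195), which became -0.06 without arsenic animal 2.

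Of the 7 kept probe sets, 4 had a negative and 3 a positive difference. Across all 11332 genes tested the median difference was 0.06 and 36.8% were negative. Groups that did not overlap, with arsenic lower, were found for 3 of the 7, where 1.68% of all 22495 kept probe sets were of that kind, and the opposite order was found for 0 of the 7, where 2.18% of all had it. At a limma adjusted p under 0.05, 1 of the 7 passed, the bright Egr3 probe set, where 0.178% of all kept probe sets passed in that direction, 0.262% in the other and 0.44% in either. The count was 0 of the 7 without arsenic animal 2, 3 or 5 or control animal 1 or 3. The genes were named with that fall known, so nothing is read from these counts.

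The differences were also computed with the kidney-transcript level of each lung as a covariate. Egr3 then differed by -2.15 and Egr1 by -0.97, and Nab1 on its brighter probe set by -0.96. Egr2 on its first probe set differed by 0.56. Without arsenic animal 4 and control animal 2 the differences were -2.66 for Egr3 and -1.18 for Egr1, and without arsenic animal 5 and control animal 2 they were -2.83 and -1.34. Egr1, Egr2, bright Egr3 and Nab1 kept their signs in these settings.

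**Figure D2:**
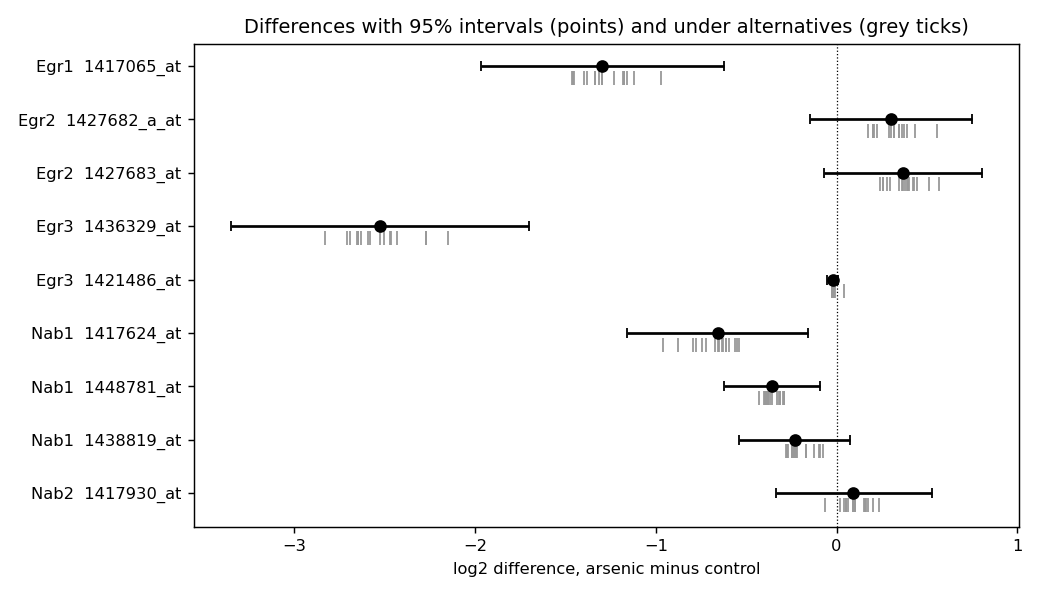
Differences between arsenic and control animals for the EGR and NAB probe sets (horizontal axis, log2, arsenic minus control). Points with bars are the differences with 95% intervals and grey ticks are the values under the other settings. The bright Egr3 probe set lies furthest from 0, at -2.53, Egr1 follows at -1.30, and Egr2 and Nab2 lie above 0, between 0.09 and 0.37.

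Animals of the same group also differed from each other, and the choice of genes did not use these deviations. The pooled SD between animals of a group was 0.671 for Egr3 and 0.545 for Egr1, larger than in 98.2% and 95.8% of kept probe sets. It was 0.402 and 0.193 for the Nab1 probe sets, 0.356 and 0.346 for the Egr2 probe sets and 0.341 for Nab2, where the median probe set had 0.202. The transcripts with the largest differences between the groups were thus also those that varied most between animals of a group.

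Each animal's deviation from its own group mean was compared between the 7 kept probe sets, which gave 21 correlations over 10 arrays. They are descriptions, given without a p, and the probe sets share the same arrays. The 2 Egr2 probe sets followed each other, with Pearson's r of 0.86 and Spearman's rho of 0.83. Egr2 on its first probe set and Nab2 varied together between animals, at r = 0.79 and rho = 0.87. Without the pair of arrays farthest from the median deviation of that Egr2 probe set, r was 0.70. Group means were not recomputed when such a farthest pair was dropped. On the second Egr2 probe set the relation with Nab2 was weaker, at r = 0.58 and rho = 0.61, and r was 0.30 without such a pair. Arsenic animal 2, for example, was the highest of its group for both.

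Nab1 and Nab2 ran in opposite directions between animals, at r = -0.73 and rho = -0.77 on the brighter Nab1 probe set and r = -0.60 on the second. Without the pair of arrays farthest from the median of each Nab1 probe set, r was -0.65 and -0.49. Leaving out 1 array at a time kept the r of the brighter probe set between -0.79 and -0.64. Egr3 followed Nab2 at r = 0.65 and ran against the brighter Nab1 probe set at r = -0.57 and the second at -0.34. Without the pair of arrays farthest from the Egr3 median these were 0.43, -0.40 and -0.07. Without arsenic animal 4 and control animal 2, and with group means recomputed, they were instead 0.74, -0.93 and -0.70. The values thus changed with the arrays left out, though the omissions also differed in whether group means were recomputed.

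Egr1 and Egr3, the transcripts that differed most between the groups, did not vary together within them. Their r was 0.08 and rho -0.02, and r ranged from -0.22 to 0.49 when 1 array was left out at a time. Egr1 had an r between -0.28 and 0.08 with each of the other 6 probe sets.

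Cell-type and RNA-quality measures moved with some of these deviations. The values given are among the largest for their probe sets out of many such correlations. Egr2 on its first probe set followed the level of alveolar type 2 markers at r = 0.81 and Nab2 did at r = 0.71. That level varied little, from 14.87 to 15.06 over all animals. Egr2 ran against the fibroblast markers at r = -0.75 and -0.68 on its 2 probe sets. Egr2 ran against the gap between the 3' and 5' probe sets of beta-actin, a measure of RNA integrity, at r = -0.75 and -0.78 on its 2 probe sets, whereas the brighter Nab1 probe set followed it at r = 0.68. Egr1 ran against the club-cell markers at r = -0.59, the ciliated-cell markers at -0.56 and the actin gap at -0.52. It followed the B-cell markers at r = 0.64. Of the 7 B-cell marker genes, 4 were bright enough to keep. The B-cell markers averaged 5.47 to 5.88 in arsenic lungs and 5.62 to 6.38 in control lungs, with group means of 5.68 and 5.91. Like Egr1, they were highest in control animals 1 and 2, at 6.38 and 6.23. The actin gap itself was 0.50 to 0.70 in arsenic lungs and 0.58 to 0.65 in control lungs. The part of these measures in the correlations was not tested.

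**Figure D3:**
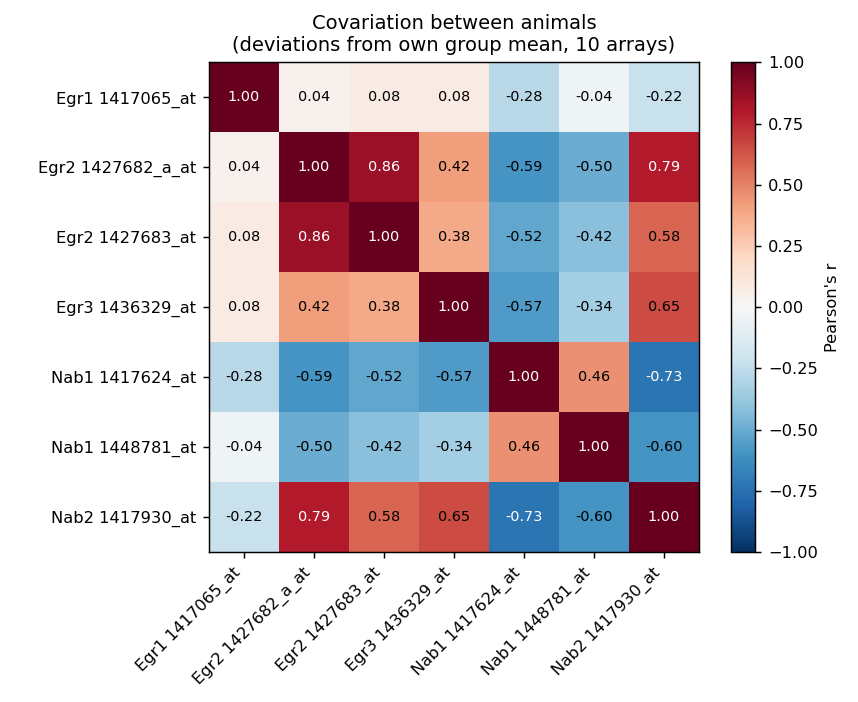
Pearson correlations between the 7 kept EGR and NAB probe sets over 10 arrays, computed on deviations from each animal's own group mean (both axes list the probe sets, and colour gives r). Egr2 and Nab2 share positive values up to 0.79, Nab1 is negative with Nab2 at -0.73, and the Egr1 row lies between -0.28 and 0.08.

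The genes whose deviations most resembled those of Egr1, among 11327 genes, were Bin1, a membrane-curving adaptor (r = 0.906), Rbbp6, a ubiquitin ligase (0.904), Sugp2 (0.894), Pik3ip1 (0.892), the Notch effector Hey2 (0.889), Sh3rf1 (0.884), Speg (0.877), Txlna (0.868), the growth factor Tgfb2 (0.853) and Chfr (0.852). For Egr3 they were Ssbp3 (0.937), the tubulin Tubb6 (0.930), Urb1 (0.922), Spsb1 (0.905), Dpp7 (0.903), thrombospondin 1, Thbs1 (0.902), Spns1 (0.895), 1700030K09Rik (0.887), Timm23 (0.886) and Slc25a33 (0.884). These are the highest of many correlations over 10 arrays and are given as a description. No gene stood in both sets. Of the 10 genes most like Egr3 between animals, Spsb1 rose with arsenic, by 1.03 (limma adjusted p = 0.0242), opposite in sign to Egr3. Srf, which encodes serum response factor, and 8 immediate-early genes came lower in the order. With Egr1 their r lay between -0.07 (Klf4) and 0.58 (Fos, in place 497), with Nr4a1 at 0.28 and Srf at 0.02. With Egr3 their r lay between -0.15 (Klf4) and 0.71 (Srf, in place 284), with Nr4a1 at 0.57 and Fos at 0.19.

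The promoter windows of the members show which letters of the known control route they hold, and RefSeq windows on GRCm38.p6, each from 250 bases before to 50 after a transcript start, were given for 3 of the 5 genes. They were searched on both strands for the EGR site GCGNGGGCG, for the CArG box that serum response factor binds, and for TGACG, the core of the site of the cAMP-responsive factor CREB. None of these motifs overlapped in the windows printed. The Egr2 window at chr10:67537619-67537918 (plus strand), the Nab1 window at chr1:52500399-52500698 (minus strand) and the Nab2 window at chr10:127666654-127666953 (minus strand) are shown so that the letters can be compared between the 3 genes. Capitals mark the matches, and each sequence is 5' to 3' on the gene's strand.
Egr2: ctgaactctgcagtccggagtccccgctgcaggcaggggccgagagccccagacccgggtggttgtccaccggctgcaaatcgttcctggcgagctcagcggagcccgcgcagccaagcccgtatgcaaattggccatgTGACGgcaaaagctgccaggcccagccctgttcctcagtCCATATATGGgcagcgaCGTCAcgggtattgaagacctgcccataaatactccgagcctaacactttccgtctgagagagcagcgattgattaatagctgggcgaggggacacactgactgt
Nab1: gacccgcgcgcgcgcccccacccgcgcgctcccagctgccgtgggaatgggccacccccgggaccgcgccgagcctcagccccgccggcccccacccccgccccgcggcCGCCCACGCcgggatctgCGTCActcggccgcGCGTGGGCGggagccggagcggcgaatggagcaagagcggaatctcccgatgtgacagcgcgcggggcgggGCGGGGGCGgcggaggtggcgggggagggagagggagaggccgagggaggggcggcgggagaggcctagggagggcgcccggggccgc
Nab2: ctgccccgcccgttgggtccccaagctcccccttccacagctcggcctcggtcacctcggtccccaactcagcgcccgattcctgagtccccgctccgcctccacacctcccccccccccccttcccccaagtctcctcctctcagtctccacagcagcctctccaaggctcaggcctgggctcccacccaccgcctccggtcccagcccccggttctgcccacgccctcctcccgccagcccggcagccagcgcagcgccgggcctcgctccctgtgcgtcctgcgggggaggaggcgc

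The Egr2 window held a CArG box 72 bases before the start and TGACG matches at -111 and -55, and its GC content was 60.0%. Of 5 Egr2 windows, 4 held a CArG box and 3 a TGACG match. However, the windows starting at 67537619, 67537620 and 67537680 overlap and hold the same CArG box and the same TGACG matches. The counts of windows are therefore not counts of separate sites. Among all 32851 windows a CArG box was found in 1.63% and TGACG in 20.8%. The Nab1 window held 3 EGR matches, at -141, -109 and -38, and 1 TGACG match, and its GC content was 81.7%. An EGR match occurred in 5.55% of all windows and 3 or more in 0.195%. In the 1285 windows with a GC content of 75% or more those shares were 37.7% and 3.35%. The Nab2 window, at 74.0% GC, held none of the 3 motifs in these letters. A match describes letters and does not show that a factor binds there.

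Genes with and without an EGR match in a window had close median differences in the lung comparison, in a description with no test. The 1152 tested genes with a match had a median difference of 0.06 and 36.4% were negative, and the 8031 genes without one had 0.06 and 36.4%. Past the limma threshold were 5 higher and 2 lower of the genes with a match, or 0.608%, and 26 higher and 3 lower of those without, or 0.361%; the difference between these shares was not tested.

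The surrounding pathway was described through 8 gene lists, with each gene represented by its kept probe set of highest mean. Of the 117 genes tested, 5 passed limma's adjusted p of 0.05, 3 higher and 2 lower, where 0.415% of all 11332 genes passed in either direction, 0.344% higher and 0.0706% lower. At an unadjusted limma p under 0.05 were 1736 of all 11332 genes, the background for such counts in the lists below. The lists were drawn up with earlier results of these lungs known, so the counts are no independent evidence. With the kidney-transcript level as a covariate limma called 0 of them, with 30 at an unadjusted p under 0.05. It also called 0 without arsenic animal 4 and control animal 2, with 25 at that unadjusted p, and 0 without arsenic animal 5 and control animal 2, with 26. No count over all genes at that p is given for these settings, so nothing is read from the 30, 25 and 26.

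The route that switches the EGR genes on, from growth-factor receptors through RAS, RAF and MAP kinases to serum response factor, showed 0 of 21 genes past limma's threshold, with 5 at an unadjusted p under 0.05 and a median difference of -0.03. Those with the smallest p were the stress kinase Mapk8, at 7.43 in arsenic and 8.44 in control lungs (-1.01, limma adjusted p = 0.141), the kinase Braf (-0.76, adjusted p = 0.159) and the calcium-regulated factor Nfatc1 (0.29, adjusted p = 0.251). A second Mapk8 probe set differed by 0.10, so the probe sets of that gene disagreed. Of 10 genes that ERK signalling induces and that report or restrain it, 0 passed, with 1 at an unadjusted p under 0.05 and a median of -0.08. The closest were Phlda1 (-0.30, limma adjusted p = 0.238), and the RAF inhibitors Spred2 (0.17, adjusted p = 0.297) and Spry4 (-0.44, adjusted p = 0.306). The Spred2 probe sets disagreed in sign: another differed by 0.23, and 2 dimmer ones by -0.65 (limma adjusted p = 0.0658, groups not overlapping) and -0.37.

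Other immediate-early genes, which share triggers with Egr1 and Egr3, had 2 of 25 past the threshold, both lower, 72% negative differences and a median of -0.14. By limma, 11 of the 25 had an unadjusted p under 0.05, in either direction. Of these 11, Klf10 (0.705, limma adjusted p = 0.109), Myc (0.74, adjusted p = 0.119) and Maff (0.56, adjusted p = 0.240) were higher in arsenic lungs. The rest of the 11 were lower. Nr4a1, an orphan nuclear receptor, had 9.11, 9.30, 9.28, 9.48 and 9.87 in arsenic animals, against 11.96, 12.11, 11.96, 11.12 and 12.57 in control animals, and fell by 2.54 (SE 0.239, limma adjusted p = 0.00626). The groups were far apart, and it passed with any 1 animal left out. Klf4, a factor of endothelial quiescence, averaged 13.19 ± 0.069 in arsenic lungs and 13.74 ± 0.195 in control lungs (SD, n = 5 each) and fell by 0.55 (limma adjusted p = 0.0471), a call lost when any 1 of the 10 animals was left out (adjusted p 0.0588 to 0.128). A second Klf4 probe set differed by -0.61 and did not pass (limma adjusted p = 0.152). Klf2, its close relative, differed by -0.88 and missed the threshold (limma adjusted p = 0.0536). Fos and Srf did not pass, at -0.13 and 0.05 (limma adjusted p = 0.791 and 0.901).

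Other factors that bind GC-rich sites like that of EGR had 0 of 3 genes past limma's threshold, with 1 at an unadjusted p under 0.05: Sp3 differed by -0.53 (limma adjusted p = 0.279), Sp1 by -0.11 (adjusted p = 0.669) and Wt1, a mesothelial factor, by -0.41 (adjusted p = 0.712). Wt1 spread widely, at 2.41 to 5.43 in arsenic lungs and 3.32 to 5.10 in control lungs, and its difference was 0.23 with the kidney level as a covariate. Partners of the NAB proteins in the NuRD complex and EGR coactivators had 0 of 15 past limma's threshold, with 0 at an unadjusted p under 0.05 and a median of 0.06. The nearest were the histone chaperone Rbbp4 (0.12, limma adjusted p = 0.378, with its other probe sets between -0.30 and 0.21), the methyl-DNA reader Mbd2 (0.11, adjusted p = 0.422) and Mta1 (0.18, adjusted p = 0.512).

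Genes described as EGR1 targets in vessels, lung or cultured cells had 2 of 24 past the threshold, both higher, and a median of 0.07. By limma, 8 of the 24 had an unadjusted p under 0.05, in either direction. Cdkn1a, the cell-cycle inhibitor p21, had 11.22, 11.59, 11.68, 11.92 and 11.87 in arsenic animals, against 10.44, 10.69, 10.58, 10.43 and 11.12 in control animals, and rose by 1.00 (SE 0.164, limma adjusted p = 0.0367). The groups did not overlap, and a second probe set rose by 1.44 (limma adjusted p = 0.0403), but the first kept its call in 2 of the 10 fits without 1 animal (adjusted p 0.0224 to 0.121). Sphk1, which makes sphingosine 1-phosphate, averaged 9.36 ± 0.282 in arsenic lungs and 8.54 ± 0.216 in control lungs (SD, n = 5 each) and rose by 0.82 (limma adjusted p = 0.0489), with the call kept in 1 of those 10 fits and a second probe set at 0.50 (adjusted p = 0.229). Ptgs2, the inducible cyclooxygenase, differed by -1.36 on its brighter probe set (limma adjusted p = 0.0588), and its dimmer one fell by 1.46 (adjusted p = 0.0489), with no overlap of the groups on either. Cdkn1a and Sphk1 thus lay opposite in sign to Egr1 itself, and Ptgs2 on the same side.

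Of genes described as EGR2 or EGR3 targets in lymphocytes, 1 of 12 passed, 2 had an unadjusted limma p under 0.05, and the median was 0.07. Zbtb16, a zinc-finger factor that EGR2 induces in natural killer T cells, had 10.23, 10.10, 10.41, 10.61 and 10.61 in arsenic animals, against 8.30, 8.39, 6.93, 7.98 and 8.54 in control animals, and rose by 2.36 (SE 0.271, limma adjusted p = 0.0117). Every arsenic animal was above every control, it passed with any 1 animal left out, and a second probe set rose by 1.19 (limma adjusted p = 0.0225). Markers of T and NK cells averaged 5.70 to 6.00 in arsenic lungs and 5.42 to 6.09 in control lungs, and 0 of their 6 kept genes passed or had an unadjusted p under 0.05 by limma. Of these 6 genes, 5 had a positive and 1 a negative difference, with a median of 0.13. The part of these cells in the Zbtb16 rise was not tested. Cblb, a ubiquitin ligase of T-cell tolerance, differed by -1.10 (limma adjusted p = 0.121), while its other probe sets differed by 0.34 and 0.19. Bcl6, a transcriptional repressor active in follicular helper T cells, differed by 0.20 (limma adjusted p = 0.294).

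Of 7 myelin and lipid genes described as EGR2 targets in Schwann cells, 0 passed limma's threshold, with 1 at an unadjusted p under 0.05 and a median of 0.06. The cholesterol enzymes Hmgcs1, Sqle and Fdps came nearest, at -0.68, -0.33 and -0.21 (limma adjusted p = 0.122, 0.312 and 0.423).

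**Figure D4:**
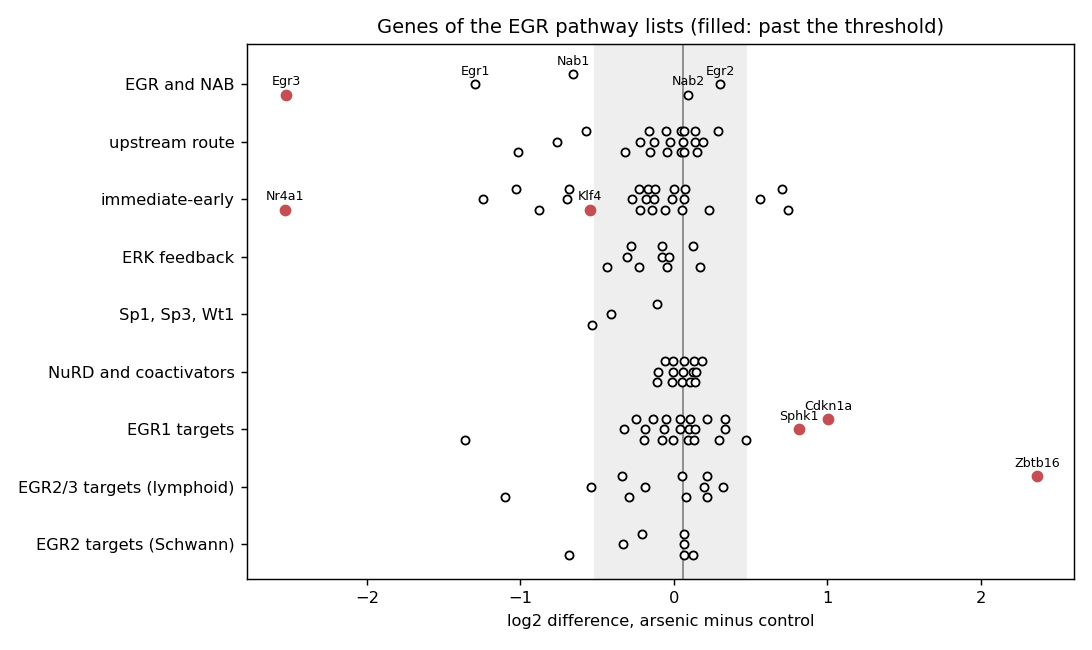
Differences of the EGR and NAB genes and of the genes of the 8 pathway lists (horizontal axis, log2, arsenic minus control). The vertical axis gives the lists, with the EGR and NAB genes on top. Each point is 1 gene, filled where it passed the limma threshold; the grey band spans the middle 95% of all genes, -0.51 to 0.47, and the line is their median of 0.06. Nr4a1 at -2.54, Egr3 at -2.53 and Zbtb16 at 2.36 lie furthest out.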

How the data were processed

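Total RNA of each lung was isolated with Trizol, passed over a Qiagen clean-up, given a biotin label and put on 1 Affymetrix Mouse430_2 array, per the labels' protocols. The deposited values are log2 expression values made by the authors with GCRMA, per the submitters' processing notes; the version is not given in the sources used here, and that they are log2 was read from their range, 0.619 to 16.3. GCRMA pulls dim probe sets to a common floor and so understates their differences.

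Of 45101 probe sets, 34958 had 1 gene symbol in the platform annotation, 932 several and 9211 none; those with several or none named no gene. The 64 control probe sets were left out. A probe set was kept if it exceeded 4.20, the median of the table, on at least 5 arrays, which left 22495. The arsenic minus control difference was fitted with limma 3.58.1 (lmFit, then eBayes) under R 4.3.3 (prior degrees of freedom 2.65) with no covariates, and p-values were adjusted over all kept probe sets by the Benjamini-Hochberg method. The adjusted p of a list gene comes from that adjustment. The fit was tested on simulated data. Each array has its own number within its group in the sample titles, and replicates were taken to be separate animals. Figures were drawn with matplotlib 3.10.9.

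The EGR and NAB genes and all lists were chosen with earlier results of these data known. The text names every probe set of the 5 genes, the genes of each list past the threshold or else up to 3 with the smallest p, and the 10 genes most like Egr1 and Egr3 between animals. Egr4, Fos, Srf, Klf10, Myc, Maff, Scgb3a1 and the immediate-early genes in the order of likeness were named outside this rule.

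Alternatives were quantile normalization, median centring, a replicate block, array weights, the kidney level as a covariate, other filters, 1 probe set per gene, trended and robust eBayes, and leaving out each animal or arsenic animal 4 with control animal 2. Leaving out arsenic animal 5 with control animal 2 was chosen after seeing the data.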

Additional observations from a re-analysis of the deposited data

Results flagged for a closer look

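On the dim Nab1 probe set 1438819_at, control animal 2 stood apart from the other controls, at 4.55 where the next control was at 3.93. The gap was 0.837 of the whole range of the controls, above Dixon's 95% critical value of 0.71 for 5 samples. The probe set was below the brightness filter and entered no test. Of 18 groups examined this was 1, and chance alone gives about 1 in 20. The same animal had the highest neutrophil marker level, 9.09, and was the lowest control for ciliated-cell (8.69), cardiac-muscle (6.35), adipocyte (3.94), smooth-muscle (8.10) and club-cell markers (14.44, mostly through Scgb3a1, at 8.98). Their part in the value was not tested.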

How the results depend on the processing

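The counts past the threshold were the least stable results. The fit called 99 of all kept probe sets, 1 of the EGR and NAB probe sets and 5 of the pathway genes. With the replicate block it called 4, 0 and 2; with a kidney-level covariate 1, 0 and 0; with no filter 19, 0 and 2. Without arsenic animal 4 and control animal 2, and without arsenic animal 5 and control animal 2, limma called 0 in all 3 sets, with 5133 and 2801 probe sets at an unadjusted p under 0.05, against 3867 with all arrays. At that p were 4 of the EGR and NAB probe sets in every setting above except the covariate, where there were 6. Pathway genes at that p were 30 with the covariate, and 25 and 26 in the 2 pair omissions. No count over all probe sets at that p is given for the replicate block, the covariate or the fit with no filter. The genes were chosen with the Egr3 fall known, so nothing is read from these counts. Same-numbered animals deviated from their group means with correlations of -0.26 to 0.15, of which 1 of 5 exceeded 0.1. So few correlations cannot exclude that the numbers pair the animals. Array weights gave 167 probe sets (78 higher, 89 lower), and 1 probe set per gene gave 54. Robust eBayes called 3 pathway genes. A filter at the 75th percentile called 0 of the EGR and NAB probe sets because it removed Egr3, with 2 left at an unadjusted p under 0.05. Leaving out 1 animal gave 12 to 97 probe sets, 0 to 1 EGR and NAB probe sets and 2 to 3 pathway genes. The Egr3 call was lost without arsenic animal 2, 3 or 5 or control animal 1 or 3, while its difference stayed between -2.71 and -2.27. The dim Egr3 probe set differed by -0.02, or by -0.007 after quantile normalization and 0.041 after median centring. The Wt1 difference changed sign to 0.23 with the kidney covariate. The cause of these changes was not tested unless given. Nr4a1 passed in 9 and Zbtb16 in 8 of the 12 other settings.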
